A study of Homo sapiens with 3 samples.

Results

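The 9 keratin genes described here are KRT7, KRT8, KRT16, KRT17, KRT18, KRT19, KRT20, KRT23 and KRT80. They were chosen by gene symbol from the 55 keratin genes among the 33538 genes of the count matrices. Their levels were followed across the cells of 3 single-cell RNA libraries from Transwell co-cultures of 2 human colorectal cancer lines, Caco-2 and HT29. Caco-2 cells differentiate into absorptive, enterocyte-like cells when kept confluent, and HT29 cells stay mostly undifferentiated with some mucus-producing cells. All libraries came from co-cultures seeded at 9 parts Caco-2 to 1 part HT29 and harvested on day 23. The 2 control libraries were untreated, and the single LPS library received 1 ng/ml of Escherichia coli O111:B4 lipopolysaccharide on the apical side from day 22 for 24 hours. Each library holds 1 Transwell of the same stocks of 2 tumour lines without stromal or immune cells, so p-values measure the spread between these Transwells only.

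Keratins are the intermediate filament proteins of epithelial cells. Each filament is built from pairs of a type I and a type II chain, so a cell that makes 1 type also makes the other. KRT8 (type II) and KRT18 (type I) form the basic pair of simple epithelia such as the gut lining, KRT19 is a further type I partner there, and KRT20 is a type I keratin of differentiated intestinal cells. KRT7 is a type II keratin of ducts and of many glandular epithelia that normal colon largely lacks. KRT16 and KRT17 are type I keratins that stratified epithelia switch on in wounds and under stress, KRT80 is a type II keratin found in many epithelia, and KRT23 is a type I keratin raised in some colon tumours.

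The 9 genes lie in the 2 human keratin clusters. In the GRCh38 build (GENCODE annotation), KRT80 spans chr12:52168996-52192014 on the minus strand, KRT7 chr12:52232520-52252186 on the plus strand, KRT8 chr12:52897187-52949954 on the minus strand and KRT18 chr12:52948871-52952906 on the plus strand. KRT18 is the type I gene that sits in the type II cluster, and its span overlaps that of KRT8 by 1084 bases. On chromosome 17, all on the minus strand, are KRT20 at chr17:40875889-40885242, KRT23 at chr17:40922700-40937646, KRT19 at chr17:41523617-41528308, KRT16 at chr17:41609778-41615899 and KRT17 at chr17:41619442-41624842. KRT16 and KRT17 are neighbours with a gap of 3542 bases. The assay reads the 3′ end of each RNA, so the last 600 bases of each main transcript were compared with all other genes in windows of 60 bases. None of the windows of KRT7, KRT20, KRT23 or KRT80 was found in another gene. Of the KRT8 windows 19.8% were shared with 7 genes (mainly the pseudogene KRT8P3), and of the KRT18 windows 20.3% were shared with 15 genes (mainly pseudogenes such as KRT18P11). For KRT16 the share was 10.0%, with KRT16P3 and KRT14 among the matches, for KRT17 2.77% and for KRT19 1.48%. The counts of these 5 genes are uncertain to the extent that such reads were dropped or assigned elsewhere.

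KRT20 is the keratin of differentiated intestinal cells whose level in the clusters is followed below, so the 250 bases before its start are shown, 5′ to 3′ on the minus strand, from RefSeq (GRCh38.p14, chr17:40885243-40885492). The capitals mark its only match to the letters TTTATG on either strand, the kind of sequence bound by caudal-type homeobox factors such as CDX1 and CDX2, which 9.64% of 35116 promoter windows of this length also hold.
KRT20: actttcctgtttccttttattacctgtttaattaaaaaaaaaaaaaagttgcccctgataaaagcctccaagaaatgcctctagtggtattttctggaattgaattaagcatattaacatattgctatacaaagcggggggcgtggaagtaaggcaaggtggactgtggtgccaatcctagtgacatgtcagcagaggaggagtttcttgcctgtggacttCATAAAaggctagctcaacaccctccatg
The TATA box letters TATAAA were not in this window on either strand, while 10.7% of the windows hold them. However, the marked letters CATAAA lie close to the gene's start and differ from TATAAA only by C in place of the leading T. Whether they serve as a caudal-type site or as a variant TATA box was not tested. Of the 9 genes, KRT8 was the other one with an entry among these promoters.

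The 3 libraries hold 19144 barcodes with 24185467 to 33893707 UMIs (unique molecular identifiers, 1 for each captured RNA molecule) per library, and 14472 cells were kept after filters on UMIs, genes, mitochondrial RNA and doublet score. A cell was assigned to a line from its UMIs on gene lists of the 2 lines grown alone, from which every keratin had been removed. This gave 2408 HT29-line cells, 11849 Caco-2-line cells and 215 cells without a line. The libraries differed in depth, with medians of 5459, 4103 and 3573.5 UMIs per kept cell in control 1, control 2 and LPS. Pairs of libraries shared 9 to 11 barcodes, none with identical counts. EPCAM, which marks epithelial cells, had UMIs in 86.8% to 94.4% of the kept cells, and CDH1, VIL1 and CDX2 in 25.9% to 63.8%. Among markers of immune, connective tissue and endothelial cells, PTPRC and DCN were at or below 0.1001 CPM (UMIs of a gene per 1000000 UMIs of the summed cells), and CD68 was the highest at 22.7 to 22.8 CPM.

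All 9 keratins were higher in HT29-line cells than in Caco-2-line cells in every library. The 3 simple-epithelium keratins were abundant in both lines and 3.15- to 4.40-fold higher in HT29-line cells, while KRT20, KRT17, KRT80 and KRT16 differed 27.0- to 61.1-fold. The UMIs were summed per line and library and compared by the quasi-likelihood test of edgeR. The library was a block (2 residual degrees of freedom, with the spread shared across genes), and p-values were adjusted by Benjamini-Hochberg over 14018 genes. 9 of 9 keratins passed as higher, against 34.7% of all genes tested. Their median log2 fold change was 3.99, against −0.06 over all genes. A further 38% of all genes passed as lower, so passing the test alone does not set a keratin apart. Fewer cells with a keratin and less of it per cell cannot be told apart in these sums. The shares of cells that follow below also fall when every cell holds less, so they do not separate these cases either.

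KRT8, the type II chain of the basic pair, was at 2811 CPM in control 1, 2374 in control 2 and 2504 in LPS in HT29-line cells, and at 561, 570 and 540 CPM in Caco-2-line cells. The groups did not overlap, and the log2 fold change was 2.14 ± 0.07 (SE, adjusted p = 4.01e-17). Its partner KRT18 was at 4364, 3326 and 3435 CPM in HT29-line cells and at 931, 928 and 780 CPM in Caco-2-line cells (log2 fold change 2.01 ± 0.07, adjusted p = 2.02e-16). The spread of KRT18 between the HT29-line sums was the widest of the pair, with control 1 above the others. KRT19 was the highest keratin of both lines, at 4561, 4460 and 4007 CPM in HT29-line cells and 1370, 1385 and 1207 CPM in Caco-2-line cells, and it had the smallest difference between the lines (log2 fold change 1.66 ± 0.06, adjusted p = 2.12e-16). KRT8, KRT18 and KRT19 together made up 93.2% to 93.7% of the UMIs of the 9 keratins in HT29-line cells and 98.9% to 99.2% in Caco-2-line cells.

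KRT20, the keratin of differentiated gut cells, was at 554, 539 and 570 CPM in HT29-line cells and at 22.8, 16.1 and 14.2 CPM in Caco-2-line cells, a 30.2-fold difference (log2 4.91 ± 0.12, adjusted p = 7.23e-19). Its HT29-line values had an SD of 15.8 CPM (n = 3), the smallest of the 9 genes relative to the level. KRT17 was at 142, 121 and 96.3 CPM against 5.28, 4.40 and 3.002 CPM (27.0-fold, log2 4.76 ± 0.11, adjusted p = 7.54e-19). KRT16, its neighbour on the chromosome, was at 30.7, 29.4 and 13.7 CPM against 0.236, 0.650 and 0.300 CPM. Its fold change (61.1-fold, log2 5.93 ± 0.25, adjusted p = 7.43e-15) rests on 6, 13 and 5 UMIs in the Caco-2-line cells of control 1, control 2 and LPS. KRT80 was at 38.0, 34.7 and 29.9 CPM against 0.512, 1.15 and 0.781 CPM (41.1-fold, log2 5.36 ± 0.20, adjusted p = 1.09e-15). The Caco-2-line levels of KRT16 and KRT80 lay within the range of HT29 markers in these cells, given below, so the size of both folds is uncertain.

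KRT7 and KRT23 were low in both lines. KRT7 was at 18.4, 16.97 and 15.8 CPM in HT29-line cells and 1.02, 1.35 and 0.660 CPM in Caco-2-line cells (log2 fold change 3.99 ± 0.23, adjusted p = 8.95e-13). KRT23 was at 5.56, 4.74 and 3.05 CPM in HT29-line cells, from 23, 19 and 10 UMIs, and at 1.69, 1.65 and 0.240 CPM in Caco-2-line cells, from 43, 33 and 4 UMIs (log2 fold change 1.83 ± 0.35, adjusted p = 7.44e-05). The groups did not overlap for either gene, and the Caco-2-line UMIs of KRT23 came mostly from a few cells described with the clusters.

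UMI counts at the 3′ end do not grow with transcript length, so the counted levels were ordered within a line. The windows shared with other genes, 20.3% for KRT18 and 19.8% for KRT8 against 1.48% for KRT19, limit this order. How many reads were lost in this way was not tested. By mean CPM over the 3 libraries, the order in HT29-line cells was KRT19 (4343 ± 295, SD, n = 3), KRT18 (3708 ± 570.5), KRT8 (2563 ± 224), KRT20 (554 ± 15.8), KRT17 (120 ± 23.0), KRT80 (34.2 ± 4.09), KRT16 (24.6 ± 9.48), KRT7 (17.1 ± 1.27) and KRT23 (4.45 ± 1.28). The ranges over libraries overlapped between KRT19 and KRT18, between KRT80 and KRT16 and between KRT16 and KRT7, and not between the other neighbours. In Caco-2-line cells the first 5 places were the same genes without any overlap, and KRT23, KRT7, KRT80 and KRT16 followed at 0.396 to 1.19 CPM with overlapping ranges.

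**Figure D1:**
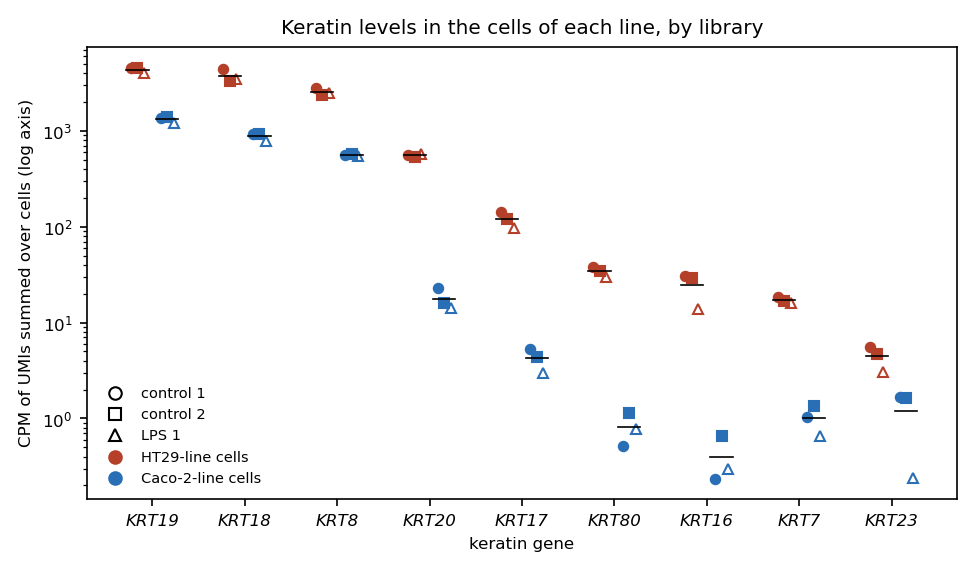
Level of each keratin (CPM of a line's pooled cells, log axis) in control 1, control 2 and LPS 1, for HT29-line cells (red) and Caco-2-line cells (blue), with the mean of the 3 libraries as a bar. Every red point of a gene lies above its blue points, from KRT19 (1370 against 4561 CPM in control 1) to KRT16 (0.236 against 30.7 CPM in control 1).

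RNA set free from broken cells, and droplets with RNA of both lines, can put UMIs of HT29 genes into Caco-2-line cells. Neither was measured here. As a reference level, whatever its source, 11 markers of undifferentiated HT29 cells, summed, were at 1.33%, 2.79% and 1.78% of their HT29-line CPM in the Caco-2-line cells of control 1, control 2 and LPS, with single markers between 0.514% and 3.56%. KRT16 (0.769%, 2.21% and 2.19%) and KRT80 (1.35%, 3.32% and 2.61%) lay within the range of the single markers of their library, and so did KRT20 in control 2 and LPS (4.11%, 2.98% and 2.50%) and KRT17 in LPS (3.71%, 3.64% and 3.12%). KRT7 (5.57%, 7.96% and 4.17%) was above every single marker. However, cluster C8, described below, held 14 of its 26 Caco-2-line UMIs in control 1, 11 of 27 in control 2 and 3 of 11 in LPS. Caco-2-line cells outside C8 and C7, another cluster described below, held only 6, 10 and 3 of these UMIs. How much of these low levels came from HT29 cells was not tested. KRT8, KRT18 and KRT19 were at 19.95% to 31.1%, far above that level.

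Shares of cells were compared after each cell had been thinned to the UMI minimum of control 1, which left 658, 825 and 642 HT29-line cells and 3924, 3651 and 3381 Caco-2-line cells in control 1, control 2 and LPS (0, 122 and 161 and 0, 322 and 571 shallower cells were left out). KRT8, KRT18 and KRT19 each had at least 1 UMI in 94.5% to 99.1% of HT29-line cells. In Caco-2-line cells the shares were 62.0% to 62.8% for KRT8, 68.2% to 70.7% for KRT18 and 86.3% to 87.8% for KRT19. KRT20 was seen in 57.8% (95% exact binomial interval 53.9% to 61.6%), 58.5% and 59.3% of HT29-line cells and in 4.41%, 2.82% and 2.72% of Caco-2-line cells. Without thinning the KRT20 shares were 77.7%, 68.3% and 69.2% of HT29-line cells, in the order of their depths (medians of 5397, 3755 and 3550 UMIs in control 1, control 2 and LPS, and of 5467.5, 4203 and 3563.5 in Caco-2-line cells), except that LPS was above control 2. Intervals cover counting error only.

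The other 5 keratins, whose levels were lower, were seen in fewer HT29-line cells. KRT17 was seen in 14.6%, 10.9% and 9.97% of the thinned HT29-line cells, KRT80 in 7.14%, 7.03% and 6.54%, KRT7 in 4.41%, 4.12% and 4.83%, KRT16 in 2.89%, 2.91% and 2.34%, and KRT23 in 0.608%, 0.970% and 0.467%. The shares of these 5 genes in Caco-2-line cells were 0.0592% to 0.712%. For 8 of the 9 keratins the interval of the HT29-line share lay above that of the Caco-2-line share in all libraries, with KRT23 as the exception.

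**Figure D2:**
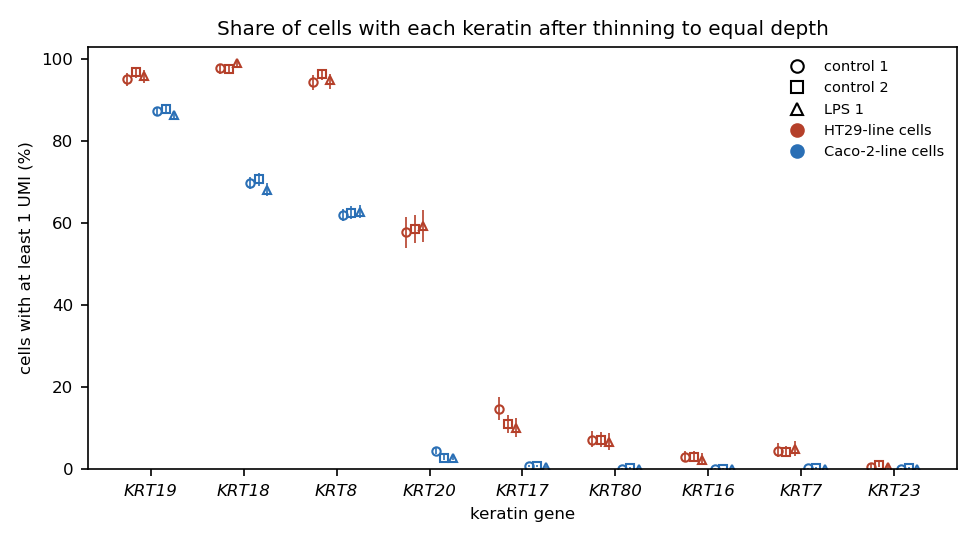
Share of cells with at least 1 UMI of each keratin (percent) after thinning every cell to the same number of UMIs, in HT29-line (red) and Caco-2-line cells (blue) of the 3 libraries, with 95% exact binomial intervals. KRT8, KRT18 and KRT19 lie above 94% in HT29-line cells, KRT20 near 58%, and the other 5 genes below 15%.

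The UMIs of KRT16 and KRT17 were unevenly spread over cells. 1 HT29-line cell of control 1 held 34 of the 127 KRT16 UMIs and 1 cell of control 2 held 32 of 118, whereas the highest cell of the LPS library held 5 of 45. The 3 highest cells carried 42.5%, 42.4% and 28.9% of the KRT16 UMIs. For KRT17 the highest cell held 69, 110 and 56 UMIs of 588, 485 and 316. KRT20, in contrast, had 4.36%, 3.29% and 3.05% of its UMIs in the 3 highest cells. KRT16 and KRT17 were thus high in few cells, and KRT20 was spread over many.

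Among the 9 genes, type I UMIs exceeded type II UMIs in both lines. Counting these genes only, HT29-line cells held 3.35 ± 0.16 type I UMIs for each type II UMI (SD, n = 3), and Caco-2-line cells 3.97 ± 0.24. Other keratins were left out, so these are not the ratios of all keratins of a cell. KRT10, the most abundant one left out, was at 244, 251 and 209 CPM in HT29-line cells and 170, 162 and 134 CPM in Caco-2-line cells. The ranges did not overlap, with 3.19 to 3.496 against 3.70 to 4.15. Together the 9 genes were 1.14% ± 0.10 of all UMIs in HT29-line cells and 0.278% ± 0.021 in Caco-2-line cells. The pair KRT18 to KRT8 was closer to even, at 1.55, 1.40 and 1.37 KRT18 UMIs for each KRT8 UMI in HT29-line cells and 1.66, 1.63 and 1.44 in Caco-2-line cells, where the ranges of the lines overlapped although the Caco-2-line value was the higher one within each library. KRT19 per KRT18 was 1.05, 1.34 and 1.17 in HT29-line cells and 1.47, 1.49 and 1.55 in Caco-2-line cells, without overlap.

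The cells fell into 15 clusters when clustered without any keratin gene. 9 of them were made mostly of Caco-2-line cells (C0 to C8) and 6 mostly of HT29-line cells (H0 to H5, with 83.5% to 96.4% HT29-line cells). Levels over clusters are a description, with no test. H0 was led by SERPINB3, RARRES2, CST6, LY6D and SPRR1B, several of them genes of stratified epithelia, and had 11 of 11 undifferentiated HT29-like markers raised. H1 was led by kallikreins, with 10 of these 11 and 6 of 6 interferon-responding markers raised. H2 was led by NUPR1 and CALB2, H3 by LCN15 and PPP1R1B, and H4 by AQP1 and PYGB. Of the same 11 markers, H4 also had 11 raised, H2 had 9 and H3 had 6, so they do not set H0 apart. A marker was raised when it was higher than in all other kept cells, most of which were Caco-2-line cells. H5 was goblet-like (6 of 8 markers, among them MUC2, FCGBP and SPINK4) and also carried the hormone genes SST and GCG.

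By the mean of the 3 libraries, H0 was the highest HT29-line cluster for 7 of the 9 keratins. For KRT8 and KRT23 its range overlapped that of H1, the next cluster. KRT16 was at 96.7, 111 and 52.5 CPM in H0 in control 1, control 2 and LPS. Its means of 3 libraries were 23.1 ± 22.3 CPM in H4 (SD, n = 3), 13.2 ± 4.51 in H1 and 2.06 to 2.58 in H2, H3 and H5. Of the KRT16 UMIs of HT29-line cells, 73.2%, 71.2% and 68.9% came from H0, which held 27.2%, 23.7% and 23.3% of the cells. KRT17 was at 344, 381 and 276 CPM in H0, no overlap with the next cluster (H1, 106 ± 38.3 CPM, SD, n = 3), and fell to 19.8 ± 7.66 CPM in the goblet-like H5. KRT19 showed the same order at a higher level, with 7528, 7281 and 7012 CPM in H0, 4339 ± 407 in H1 and 2212 ± 454 in H5. KRT80 was high in both H0 (71.0 ± 17.2 CPM) and H4 (61.3 ± 19.4 CPM), whose ranges overlapped, and lowest in H3 (4.21 ± 1.17 CPM). KRT7 ran from 27.4 ± 3.04 CPM in H0 to 8.21 ± 1.86 in H5, and KRT23 from 9.84 ± 1.69 CPM in H0 to 0 UMIs in H5.

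KRT20 had another order. It was highest in H1 (782, 715 and 743 CPM), where no other cluster overlapped. H0, the top cluster of the wound keratins, was next to last by the mean of the 3 libraries, at 318, 377 and 432 CPM. In LPS, however, H0 was above H4 (427 CPM) and H3 (414 CPM). H5 was lowest at 214 ± 60.9 CPM, and the thinned shares were 70.1%, 69.2% and 68.5% of H1 cells and 27.1%, 32.2% and 32.7% of H5 cells. KRT8 and KRT18 varied least, with highest over lowest cluster means of 1.92 and 1.71, against 16.8 for both KRT17 and KRT80 and a still wider spread for KRT16. The ratio of type I to type II UMIs among the keratins described here ran from 2.65 ± 0.30 in H4 to 3.93 ± 0.21 in H0.

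**Figure D3:**
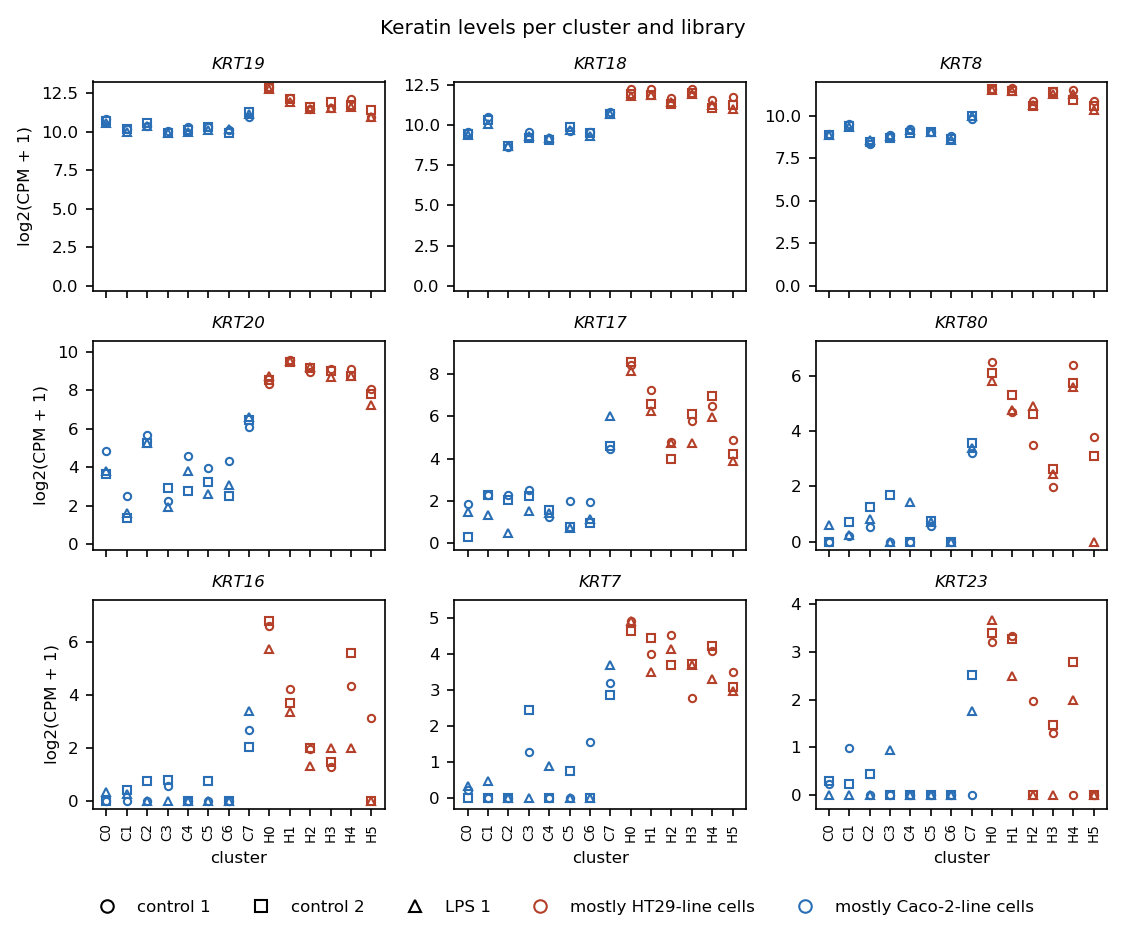
Level of each keratin per cluster, as log2(CPM + 1) of the pooled cells of each library, for the 14 clusters with at least 20 cells in every library, coloured by the line of most of their cells. KRT16 and KRT17 peak in H0, KRT20 in H1 and, among Caco-2-line clusters, in C2 and C7.

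Among Caco-2-line clusters, C2 was enterocyte-like, with 12 of 13 markers raised (APOA4 and FABP2 among the leading genes). KRT20 was at 50.6, 38.0 and 37.0 CPM in C2 and at 4.64, 1.61 and 2.10 CPM in C1, a cluster led by ANKRD1 and GAL. C2 held 19.6%, 15.03% and 15.9% of the Caco-2-line cells and 40.4%, 33.6% and 40.5% of their KRT20 UMIs. Thinned shares of cells with KRT20 were 9.59%, 6.90% and 7.16% in C2 and 1.18%, 0.197% and 0.487% in C1. The summed HT29 markers were at 9.51, 19.5 and 14.7 CPM in C2 and at 18.1, 21.7 and 13.9 CPM in C1, but were lower than in C2 in every library in C0, C4 and C5, and their part in the KRT20 level of C2 was not tested. KRT18 had the opposite order, at 404 ± 7.69 CPM in C2 and 1261 ± 210 in C1 (SD, n = 3), and KRT8 was at 350.4 ± 26.9 and 695 ± 43.6 CPM. KRT19 differed less, with 1350 ± 116 CPM in C2, 1090 ± 83.7 in C1 and 1657 ± 125 in C0, a cluster led by S100A9 and CCL20. The ratio of type I to type II UMIs among the keratins described here had its highest mean in C2 (5.14 ± 0.55) and C0 (5.03 ± 0.30), and lowest in C4 (3.04 ± 0.28).

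C7, with 344 cells led by SPRR1B, had the highest mean level of each of the 9 keratins among the Caco-2-line clusters with at least 20 cells per library. KRT20 was at 67.8, 85.5 and 98.0 CPM in it and KRT8 at 890.1, 998 and 1016 CPM. Its cells had a median of 13426.5, 5208 and 8042.5 UMIs in control 1, control 2 and LPS, and the summed HT29 markers were at 17.8%, 28.8% and 37.0% of their HT29-line level. The part of RNA from both lines in these values was not tested. C7 made up 1.89%, 4.61% and 1.04% of Caco-2-line cells. Of its 344 cells 1.45% were HT29-line cells and some had no line, and its levels include these cells.

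C8 was a rare cluster of 21, 41 and 8 cells in control 1, control 2 and LPS, with 7 of 7 fetal and placental markers raised. KRT23 was at 182, 91.5 and 53.1 CPM in C8, above every other cluster, and KRT7 at 72.9, 40.3 and 79.7 CPM, above H0. C8 supplied 35 of the 43, 25 of the 33 and 2 of the 4 KRT23 UMIs of all Caco-2-line cells. Without C8 the Caco-2-line level of KRT23 was 0.318, 0.406 and 0.120 CPM. KRT8 (1896, 1804 and 2365 CPM) and KRT18 (2729, 2716 and 1860 CPM) in C8 lay between the levels of the 2 lines in every library, while KRT16 and KRT80 had 0 UMIs in C8 in every library.

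KRT16, KRT17 and KRT80 were found in the same HT29-line cells more often than their single shares give. The number of thinned cells with both of a pair was compared with the number that the product of the single shares gives. KRT16 and KRT17 were together in 10, 13 and 8 cells, against 2.77, 2.62 and 1.495 from the product, which is 3.61 to 5.35 times as many. KRT17 and KRT80 were together 2.15 to 2.37 times as often, in 15, 15 and 9 cells. KRT16 and KRT80 were together 2.04 to 3.68 times as often, but only in 5, 5 and 2 cells against 1.36, 1.69 and 0.981 from the product. Pearson's r of log2(UMIs + 1) for KRT16 and KRT80 was 0.238, 0.056 and 0.028 in control 1, control 2 and LPS, so the excess of this pair is uncertain. KRT20 was together with KRT16 at 0.899 to 1.07 times the product, with KRT80 at 0.958 to 1.09 and with KRT17 at 0.974 to 1.15. KRT20 was in 57.8% to 59.3% of these cells. A ratio as high as those of the pairs above was therefore not possible for it, and the 2 sets of ratios cannot be compared. Across all 36 pairs, 23 were above the product in all 3 libraries, but for pairs with KRT8, KRT18 or KRT19 the ratio lay near 1 because almost every cell had these keratins. For them the correlation of log2(UMIs + 1) across thinned HT29-line cells is a better description. Pearson's r of KRT8 and KRT18 was 0.561, 0.487 and 0.517 in control 1, control 2 and LPS (658, 825 and 642 cells that share a library and a thinned depth), the highest of the 36 pairs. In Caco-2-line cells it was 0.322, 0.342 and 0.281 (3924, 3651 and 3381 cells). For KRT18 and KRT19 it was 0.313, 0.376 and 0.355 in HT29-line cells.

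**Figure D4:**
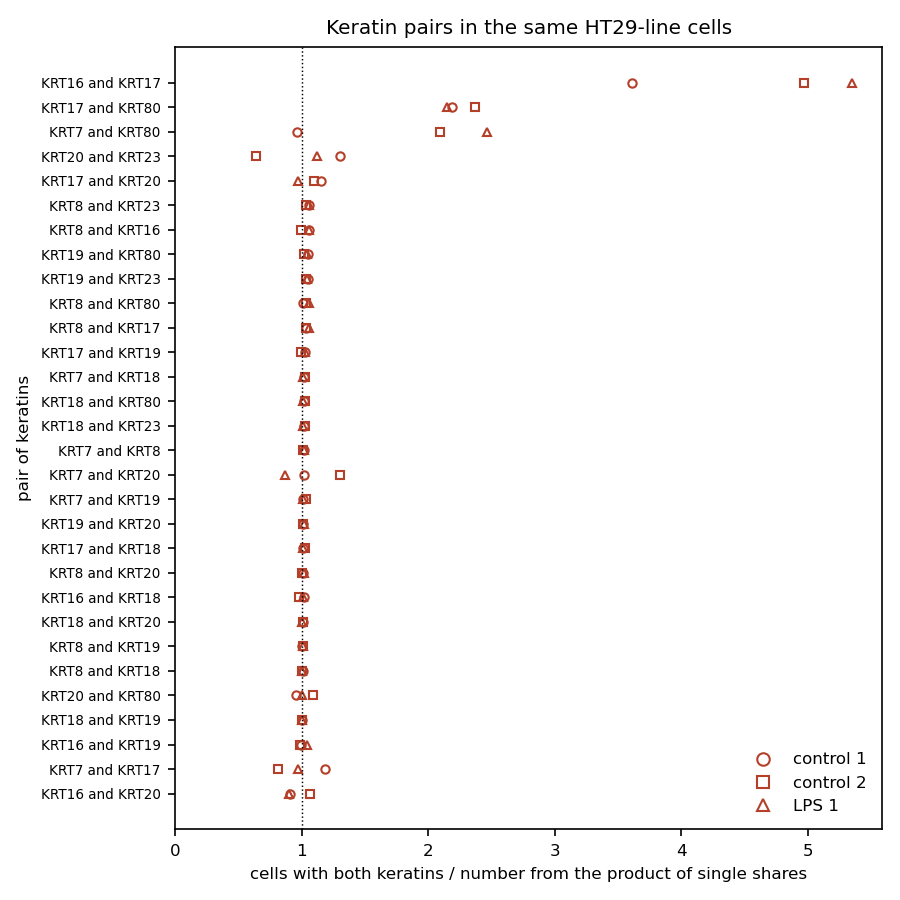
Number of HT29-line cells with both keratins of a pair, divided by the number that the product of the single shares gives, in thinned cells of the 3 libraries, for pairs whose product was at least 1 cell in every library. The dotted line marks a ratio of 1, and KRT16 with KRT17 (3.61 to 5.35) and KRT17 with KRT80 (2.15 to 2.37) lie above it in all libraries.

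The LPS library was compared with the controls to ask whether the keratins of either line responded to 24 hours of bacterial lipopolysaccharide. No keratin passed the edgeR test with Benjamini-Hochberg adjustment over 15102 genes in either line, where 0.00662% of all genes passed in Caco-2-line cells (1 gene) and 0.0464% in HT29-line cells (7 genes). All 9 keratins had a fold change below 0 in both lines, with medians of −0.54 in Caco-2-line and −0.24 in HT29-line cells on the log2 scale, against 0.00 and −0.01 over all genes. The 2 lines come from the same 3 libraries, so these signs are not independent. KRT20 in HT29-line cells was at −0.0046, although its CPM was higher in LPS (570) than in control 1 (554) and control 2 (539). The CPM in LPS lay between the controls for KRT8 and KRT18 in HT29-line cells and for KRT16 and KRT80 in Caco-2-line cells. At an unadjusted edgeR p under 0.05 there were 3 keratins in Caco-2-line cells (KRT17, KRT20 and KRT23) and 2 in HT29-line cells (KRT16 and KRT17), against 3.11% and 3.31% of all genes. With adjusted p under 0.05, DESeq2 called 0 in each line, as edgeR did. The single LPS library is assumed to vary as the controls do.

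The lowest value was that of KRT23 in Caco-2-line cells, with 43 and 33 UMIs in the controls and 4 in LPS (1.69, 1.65 and 0.240 CPM, log2 fold change −2.83 ± 0.61, edgeR adjusted p = 0.614). C8, which supplied most of these UMIs, held 0.535% and 1.01% of the Caco-2-line cells of the controls and 0.202% of those of LPS, and the part of this share in the result was not tested. KRT16 in HT29-line cells was next, at 30.7 and 29.4 CPM in the controls and 13.7 in LPS (log2 fold change −1.20 ± 0.31, edgeR adjusted p = 0.967). Without the 3 highest cells of each library these values were 17.7, 17.01 and 9.81 CPM, and the thinned shares of cells with KRT16 had overlapping intervals (1.75% to 4.47%, 1.87% to 4.30% and 1.31% to 3.82%). Without the filter on low counts the adjusted p was 0.0092 for KRT23 and 0.0337 for KRT16. KRT17 had a log2 fold change of −0.78 ± 0.27 in Caco-2-line and −0.52 ± 0.20 in HT29-line cells (adjusted p = 0.997 and 1).

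The abundant keratins were close to 0. KRT8 had a log2 fold change of −0.15 ± 0.17 in Caco-2-line and −0.12 ± 0.17 in HT29-line cells, KRT18 −0.34 ± 0.19 and −0.23 ± 0.19, and KRT19 −0.28 ± 0.16 and −0.24 ± 0.16. KRT20 was at −0.54 ± 0.24 in Caco-2-line and −0.0046 ± 0.21 in HT29-line cells. The difference of the LPS effect between the lines was not past the threshold for any keratin (0.0132% of all genes were, 2 genes). It was largest for KRT23 (log2 2.01 ± 0.88, edgeR adjusted p = 1), the 1 keratin with an unadjusted p under 0.05, which 2.05% of all genes had.

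**Figure D5:**
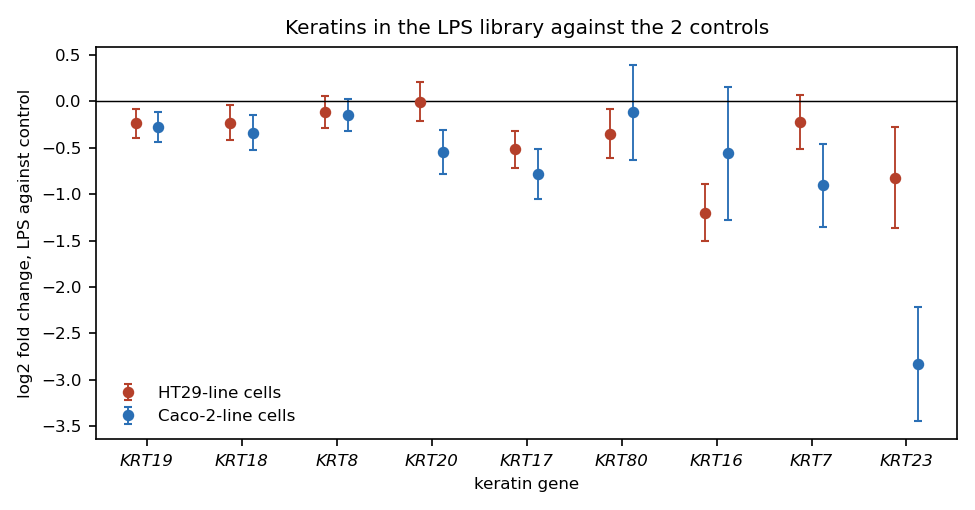
Log2 fold change of each keratin in the LPS library against the 2 controls, in HT29-line (red) and Caco-2-line cells (blue), with 1 standard error of the edgeR fit on each side. All points lie below 0, none passed the adjusted threshold, and KRT23 in Caco-2-line cells (−2.83) and KRT16 in HT29-line cells (−1.20) are the lowest of their line.

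The remaining 46 keratin genes gave 14283 UMIs in the kept cells, against 313023 for the 9 described here, and 24 of them had none. KRT10 accounted for 12814 of the UMIs and KRT15 for 1003. 5 of the 46 passed the filter on low counts for the line test, and all 5 were higher in HT29-line cells, against 34.7% of all genes tested. These were KRT15 (log2 fold change 1.74 ± 0.14), KRT13 (4.58 ± 0.55, from 41 UMIs), KRT10 (0.54 ± 0.08), KRT12 (3.74 ± 0.64, from 27 UMIs) and KRT86 (0.70 ± 0.28). The filter left out KRT4, which had 18, 22 and 14 UMIs in the Caco-2-line cells of control 1, control 2 and LPS. In HT29-line cells KRT4 had 0, 0 and 0 UMIs, so the shared direction of the 5 does not extend to all 46. KRT5 and KRT14, the pair of basal cells in stratified epithelia, had 1 and 14 UMIs in 14472 cells, and KRT6A, a usual type II partner of KRT16 and KRT17 in skin, had 26.

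Desmosomal and linker genes, which tie keratin filaments to the cell surface and to each other, went mostly with the keratins. Of 15 listed, 14 were tested and 10 were higher and 3 lower in HT29-line cells (background 34.7% higher and 38% lower), with a median log2 fold change of 0.87. The desmosomal cadherin DSC2 (log2 2.67 ± 0.10), the linkers PLEC (1.69 ± 0.09) and EVPL (4.29 ± 0.24), the cadherin DSG2 (1.43 ± 0.09), PERP (1.15 ± 0.08), the plaque proteins PKP1 (5.53 ± 0.41) and JUP (0.52 ± 0.08) were higher, and PKP2 (−0.76 ± 0.12) was lower. The other lower ones, named after their values were seen, were the linkers DSP (−0.24 ± 0.08) and DST (−0.41 ± 0.09). PKP1 had only 2, 3 and 3 UMIs in the Caco-2-line cells of control 1, control 2 and LPS, so the size of its fold is uncertain. 5 of the 15 (DSP, PLEC, JUP, PKP2 and PERP) were also among the genes used to assign cells to lines, so their direction is no independent result. Of 6 other intermediate filament genes, LMNA was higher (1.54 ± 0.08) and 5 were lower, namely LMNB1 (−2.01 ± 0.18), NES (−3.22 ± 0.33), LMNB2 (−1.002 ± 0.17), SYNM (−6.90 ± 1.49) and VIM (−1.85 ± 0.44). In the HT29-line cells of control 1, control 2 and LPS, SYNM had 0, 0 and 0 UMIs, VIM 3, 5 and 1, and NES 0, 6 and 9. The size of these 3 folds is therefore uncertain. LMNA and NES had served for the line assignment.

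Of 15 genes of squamous differentiation, none of which was used for the assignment, 11 were tested, with 9 higher and 2 lower in HT29-line cells (background 34.7% higher and 38% lower). S100A2 (log2 5.13 ± 0.13), SPRR3 (6.26 ± 0.22), SCEL (4.75 ± 0.18), SPRR1B (5.30 ± 0.20), SERPINB5 (5.96 ± 0.38), SFN (1.20 ± 0.09), CALML5 (4.56 ± 0.46) and IVL (5.22 ± 0.70, from 28 UMIs) were the higher ones with the lowest p. The 2 lower ones, named after their values were seen, were TGM1 (−3.04 ± 0.46), which cross-links the cornified envelope, and KRTDAP (−3.51 ± 0.69). TGM1 had only 2, 2 and 1 UMIs in the HT29-line cells of control 1, control 2 and LPS, and KRTDAP 1, 1 and 0. SERPINB5 had only 4, 4 and 1 UMIs in the Caco-2-line cells, so the size of its fold is uncertain. Of 18 epithelial transcription factors, 16 were tested, with 8 higher and 5 lower, against the same background. CDX2 (−3.34 ± 0.17), HNF4A (−2.21 ± 0.10), GATA6 (−1.52 ± 0.13) and SOX2 (−4.28 ± 0.41, with 1, 1 and 2 UMIs in HT29-line cells) were lower, and EHF (5.32 ± 0.17), CDX1 (5.31 ± 0.38), GRHL3 (5.38 ± 0.47) and KLF5 (0.87 ± 0.08) were higher. HNF4A, GATA6, KLF5 and EHF had served for the assignment. The 2 caudal-type factors had opposite directions between the lines. In HT29-line cells of control 1, control 2 and LPS both were low, with CDX2 at 10.6, 4.74 and 15.5 CPM and CDX1 at 8.47, 9.23 and 5.18 CPM. In Caco-2-line cells CDX1 had only 5, 3 and 3 UMIs and GRHL3 3, 3 and 1, so the size of these folds is uncertain. All adjusted p-values of the genes named here were at most 0.0293 by edgeR, and no gene of these lists passed the test of LPS in either line.

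The genes whose level over 14 clusters was most like that of a keratin, among those with at least 20 CPM in a cluster, differed between keratins. Pearson's r of log2(mean CPM + 1) was 0.986 for KRT16 with SERPINB7, 0.986 for KRT17 with RHBDL2, 0.981 for KRT23 with SPRR3, 0.984 for KRT80 with AHNAK2 and 0.977 for KRT7 with CRIP2. KRT20 was most like ZNF524 (0.981), TSPAN1 (0.980) and SERINC2 (0.970), KRT19 most like CLIC3 (0.974), and KRT8 most like TRIM47 (0.985). KRT18 had KRT8 behind WDYHV1 and TSPO among its most similar genes (0.970). The clusters of both lines enter these correlations. Over the 6 HT29-line clusters alone, r was 0.969 for KRT16 with SERPINB7, 0.990 for KRT23 with SPRR3 and 0.980 for KRT80 with AHNAK2. For KRT20 it was 0.840 with ZNF524, its most similar gene, but 0.492 with TSPAN1 and 0.384 with SERINC2. For KRT18 with WDYHV1 it was 0.561.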

How the data were processed

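Single-cell 3′ RNA was sequenced from 3 Transwell co-cultures (2 controls, 1 LPS). Cell Ranger, with GRCh38, made the raw UMI counts that the authors deposited per gene and barcode, with no normalization. The matrices held 24185467 to 33893707 UMIs per library. Cells needed 2250 UMIs and 770 genes (control 1) or 1500 UMIs and 700 genes (control 2, and LPS, for which the study states no minimum) and at most 20% mitochondrial UMIs. Scrublet's own threshold marked 0, 0 and 1 cells as doublets and had not worked, so the 6% of cells with the highest doublet score were removed instead. A line was called at a posterior of 0.95 in a 2-part mixture of the UMIs on the study's line lists (397 HT29 and 753 Caco-2 genes used, 5 keratins removed). Libraries were integrated with sctransform 0.4.2 and Seurat 5.3.0 (R 4.3.3) on 3000 genes without keratins. Clusters were made with leidenalg 0.10.2 (Python 3.11.15) at a resolution of 0.5, and 0.4 for HT29-line clusters. Scrublet was run through scanpy 1.11.5.

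UMIs were summed per line and library and tested with edgeR 4.0.16 (TMM, quasi-likelihood, Benjamini-Hochberg adjusted p under 0.05), with the library as a block between the lines, since both lines come from the same Transwell. LPS was tested in 1 fit of the 6 sums without the block. On simulated counts the test recovered 87% of 2-fold and 97% of 4-fold changes between the lines (14018 genes, 4.17% false calls) and 37% and 73% for LPS in HT29-line cells (15102 genes, 0% false calls). In these simulations only 100 genes, none of them of low count, were changed at each fold, and the sums of a library were drawn independently. In the data 72.7% of the genes passed between the lines, so the simulated rates do not carry over to them. Other settings were another normalization, DESeq2 1.42.0, no filter on low counts, other cell filters, line calls and clusterings, and leaving out each library. The keratins and gene lists were chosen with earlier results of these data known. Besides the 9 keratins, the text names up to 8 genes per list with the lowest adjusted p between the lines, and the 3 genes most like each keratin were computed.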

Additional observations from a re-analysis of the deposited data

How the results depend on the processing

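The higher level of all 9 keratins in HT29-line cells kept its direction and its side of the threshold in every setting tried. Of all genes, 10195 passed between the lines, 9727 with no replicate block (the pairing of both lines by library), 8368 with DESeq2 and 9497 to 9698 when 1 library was left out. For LPS, 1 gene passed in Caco-2-line cells and 7 in HT29-line cells, against 35 and 36 with no filter on low counts and 18 and 23 with each line fitted alone. In Caco-2-line cells 0 genes passed with no doublets removed or with the line called per cluster, and 2 with the control 1 minimums in all libraries. The LPS fold change of KRT20 in HT29-line cells changed sign, with 0.0053 on the log2 scale with no doublets removed and with each line fitted alone, 0.0286 with the control 1 minimums and −0.0374 to 0.0277 without 1 control. Leaving out 1 control also turned the sign for KRT8 in HT29-line cells (−0.24 to 0.0227) and for KRT16 (−1.14 to 0.24) and KRT80 (−0.61 to 0.51) in Caco-2-line cells, where the fits had no residual degrees of freedom and gave no test. The cause was not tested. The labels state no pairing of the LPS library with a control, so LPS and controls were compared unpaired. The difference of the LPS effect between the lines was tested without the library as a block, although both lines share each library. The single LPS library, and the 4 to 50 UMIs of KRT16, KRT17, KRT23 and KRT80 in its Caco-2-line cells, limit what could be detected.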
